A study of Mus musculus with 18 samples.

Results

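The GARP and TGF-beta pathway genes described here are 10 of the 35275 gene identifiers measured in sorted mouse regulatory T cells (Treg), CD4+ lymphocytes that depend on Foxp3 and hold immune responses in check. All 10 were chosen by name. Lrrc32 was taken up because its RNA was lower in the Mef2c- and Mef2d-labelled libraries, so its values there against wild type are a description and carry no test. The rule names no measured value for the other 9.

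RNA was sequenced from Treg of male mice aged 6 to 8 weeks, which had been enriched on a CD4 column and sorted for yellow fluorescent protein (YFP). Per the labels, 5 groups of 3 libraries carried Foxp3YFPcre and floxed alleles, of Dyrk1, of HDAC1, of HDAC2, of Mef2c or of Mef2d. Foxp3YFPcre is a cre recombinase made with YFP from the Foxp3 gene, so that cells without Foxp3 keep the floxed gene. The wild-type group of 3 carried Foxp3YFPcre alone, an allele that all 18 libraries share. The series text calls the replicates independent and biological and does not say whether animals were pooled. Whether the label Dyrk1 means Dyrk1a or Dyrk1b is not given, and the growth protocol speaks of deleting Rcor1, which no label carries.

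Of the targeted genes only Hdac1 was lower, beyond the spread of the libraries, under its own label. Hdac1 averaged 32.0 ± 4.34 FPKM (fragments scaled per kilobase of gene and by library depth) in HDAC1-labelled libraries and 119 ± 3.05 FPKM in wild type (SD, n = 3 each, as for every mean ± SD that follows). Mef2d averaged 53.4 ± 0.561 FPKM in Mef2d-labelled libraries and 41.7 ± 4.59 FPKM in wild type, and Mef2c 1.27 ± 0.594 FPKM in Mef2c-labelled libraries and 0.476 ± 0.151 FPKM in wild type. Hdac2 averaged 27.9 ± 0.937 FPKM in HDAC2-labelled libraries and 28.3 ± 0.519 FPKM in wild type, and Dyrk1a and Dyrk1b averaged 33.1 ± 2.58 and 11.8 ± 0.789 FPKM with the Dyrk1 label, against 27.7 ± 1.46 and 7.001 ± 0.466 FPKM in wild type. Such values cover whole genes, floxed exons and others, so they are no check of a deletion, and groups are called by their label. The depth was 15.9 to 24.1 M reads, an estimate that takes the commonest of the smallest values times gene length in a library as 1 read. The 7 Treg markers, Foxp3 among them, summed to 965 to 1177 FPKM over the 18 libraries. B cell markers (8 genes) summed to 375 FPKM in Dyrk1 replicate 1, 174.1 in Mef2d replicate 1 and 126 in Mef2c replicate 1, and to 29.2 to 47.6 FPKM in wild type. Replicates 2 and 3 had 61.8 and 86.6 FPKM with the Mef2c and 50.1 and 77.3 FPKM with the Mef2d label, all above wild type. With the Dyrk1 label they had 34.6 and 29.8 FPKM. The sums were 45.7 to 86.9 FPKM with the HDAC1 and 43.1 to 61.7 FPKM with the HDAC2 label. The part of these B cell transcripts in the results was not tested beyond leaving out the 3 libraries richest in them.

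GARP, the product of Lrrc32, is a membrane protein that holds latent TGF-beta1 on the surface of activated Treg. Integrins with the alpha V chain, in Treg above all alpha V beta 8, free the active cytokine, which brings its receptors together so that they phosphorylate Smad2 and Smad3. Smad7 and the corepressors Ski and SnoN (the product of Skil) restrain that signal, and Smad7 and Skil are in turn induced by it.

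All 10 genes passed the filter of at least 1 FPKM in at least 3 libraries and so were among the 12223 genes tested. Tgfb1 had the highest level of the 10, with a mean of 115 FPKM over the 18 libraries, above 96.0% of the genes tested. Tgfbr2, Ski, Lrrc32 and Smad7 averaged 63.3, 60.6, 55.3 and 44.7 FPKM. The averages of Skil, Smad3 and Tgfbr1 were 31.7, 23.4 and 21.2 FPKM. The integrin genes had the lowest levels, with 7.47 FPKM for Itgav and 3.11 FPKM for Itgb8, and only 22.4% of the genes tested had a lower mean than Itgb8. Apart from Lrrc32, whose highest group mean was 4.15 times its lowest, the genes varied little between groups, and for the other 9 that ratio was at most 1.53.

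**Figure D1:**
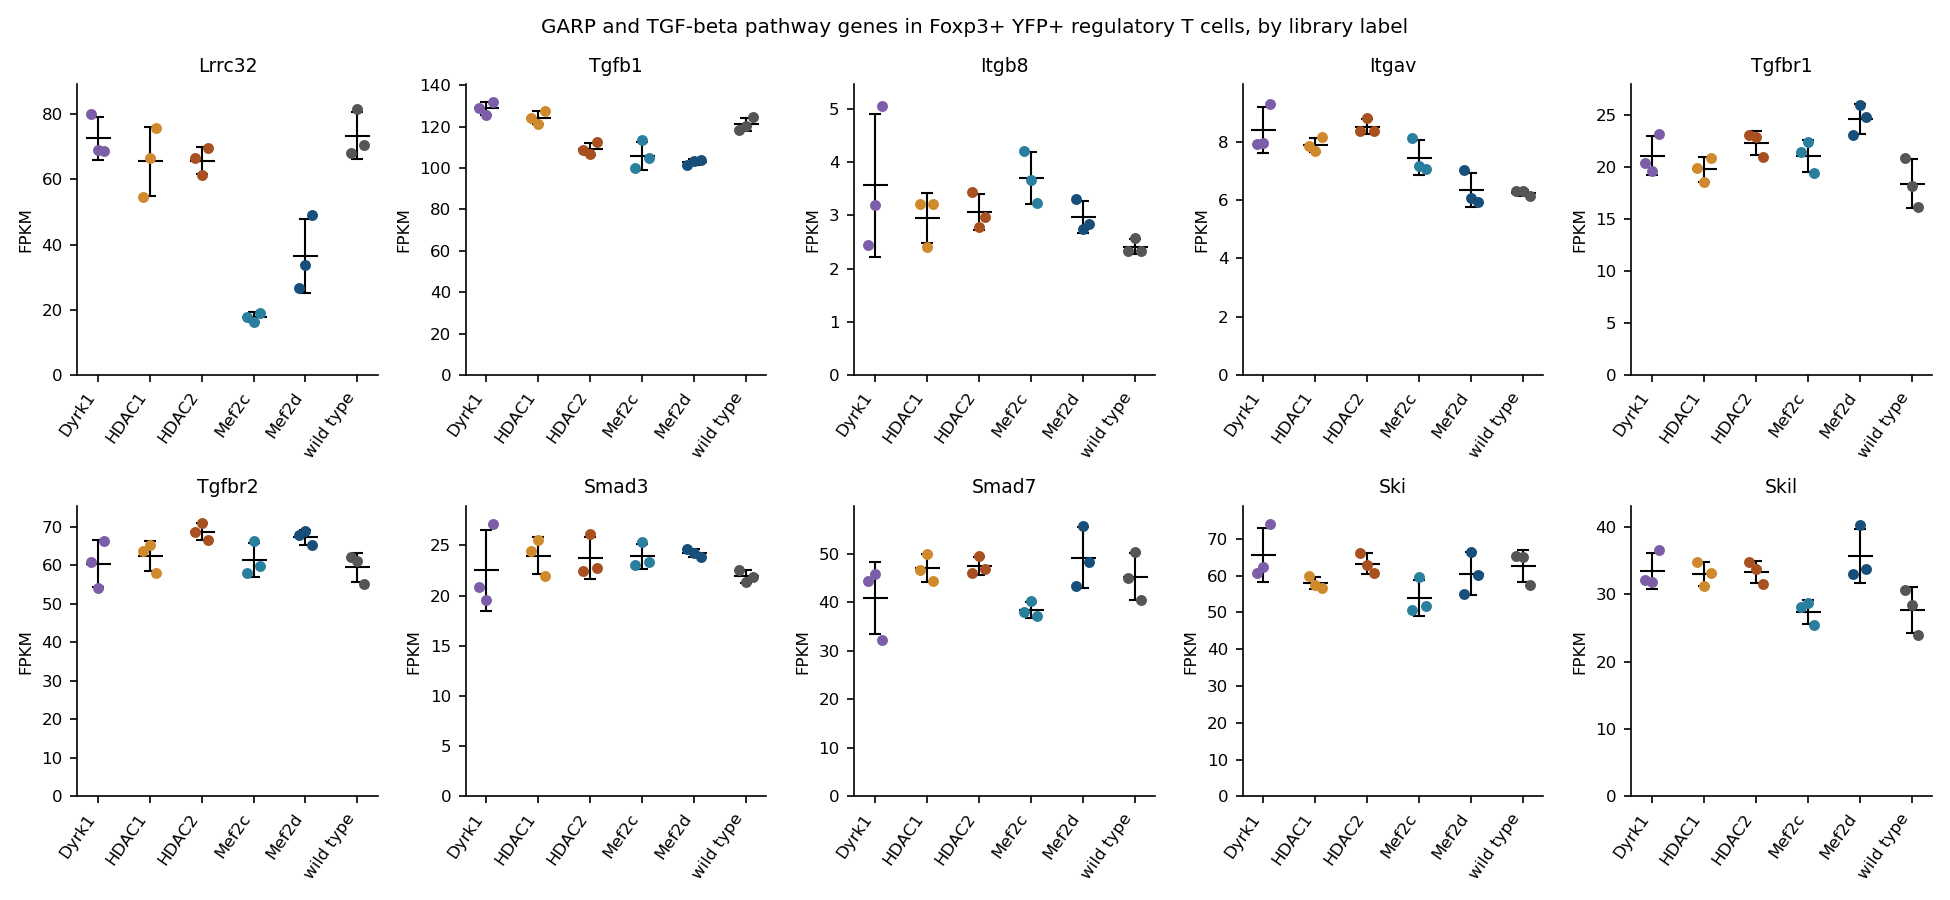
FPKM of the 10 genes in each of the 18 libraries (points), by label, with the group mean and SD (black; n = 3). Lrrc32 stands at 16.1 to 19.1 FPKM in Mef2c-labelled and 26.8 to 49.1 FPKM in Mef2d-labelled libraries, against 68.1 to 81.6 FPKM in wild type, while the other 9 genes keep group means within 1.53 times of each other.

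Lrrc32 (ENSMUSG00000090958, chr7:98489283-98502181, plus strand, mm10) had 17.8, 16.1 and 19.1 FPKM in the Mef2c-labelled libraries, and 26.8, 33.8 and 49.1 FPKM in the Mef2d-labelled libraries, against 68.1, 81.6 and 70.4 FPKM in wild type. Every Mef2c-labelled library was below every Mef2d-labelled one, and every Mef2d-labelled one below every wild-type one. The mean was 24.1% of wild type with the Mef2c label (log2 difference -1.99, SE 0.17) and 49.8% with the Mef2d label (log2 difference -1.02, SE 0.17). Among the 12223 genes this was the 25th lowest log2 difference with the Mef2c label and the 156th lowest with the Mef2d label. As in any bulk sample, fewer cells that carry a transcript and less of it per cell cannot be told apart.

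The spread within the Mef2d-labelled group was the widest of the 6 for Lrrc32, with an SD of 11.4 FPKM, against 1.52 FPKM in the Mef2c-labelled group. The log2 difference from wild type was -1.25 without Mef2d replicate 3 and -0.83 without Mef2d replicate 1, the library of the group with the most B cell markers. With the Mef2c label it lay between -2.05 and -1.91 with any 1 of its 6 libraries left out. Platelets and megakaryocytes also make GARP. Their 7 markers summed to 0.793 to 1.12 FPKM in Mef2d-labelled, 0.861 to 1.86 FPKM in Mef2c-labelled and 1.09 to 1.43 FPKM in wild-type libraries. In each of these libraries 2 to 5 of the 7 were at 0, and Itga2b made up most of the sum. Pf4, Treml1 and Clec1b had higher means in wild type than with either MEF2 label, and Itga2b and Ppbp lower ones. The part of these cells in the Lrrc32 values was not tested.

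Between the MEF2-labelled groups Lrrc32 was lower with the Mef2c label than with the Mef2d label, by a log2 difference of -0.97 (SE 0.17), with 3 of 3 libraries below all 3. As the gene was chosen on its values in these libraries, no test is given. The log2 difference was -0.74 without Mef2d replicate 3 and -1.16 without Mef2d replicate 1, the extremes with 1 of the 6 left out.

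In the other groups Lrrc32 was close to wild type. It had 80.2, 69.0 and 68.7 FPKM in Dyrk1-labelled, 54.6, 66.4 and 75.7 FPKM in HDAC1-labelled and 66.5, 61.3 and 69.5 FPKM in HDAC2-labelled libraries. All 3 groups overlapped wild type. The log2 differences from wild type were -0.01 (95% interval -0.37 to 0.34), -0.17 (-0.52 to 0.19) and -0.15 (-0.51 to 0.20), with adjusted p of 0.966, 0.537 and 0.525 by limma. In order of mean level, wild type was followed by Dyrk1, HDAC2, HDAC1, Mef2d and Mef2c labels, and neighbours among the first 4 in that order overlapped.

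Tgfb1 (ENSMUSG00000002603, chr7:25687002-25705077, plus strand) encodes the cytokine that GARP holds. It was lower with both MEF2 labels and with the HDAC2 label, by small amounts. The Mef2d-labelled libraries had 102, 103 and 104 FPKM, the Mef2c-labelled ones 100.04, 113 and 105 FPKM and the HDAC2-labelled ones 109, 107 and 113 FPKM, against 118, 120.5 and 124.5 FPKM in wild type. In each of the 3 groups every library was below every wild-type one. The log2 differences were -0.23 (SE 0.05, adjusted p 0.00512), -0.19 (SE 0.05, adjusted p 0.0144) and -0.15 (SE 0.05, adjusted p 0.0395) for the Mef2d, Mef2c and HDAC2 labels.

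The Mef2d call on Tgfb1 held under all 15 other settings tried. The Mef2c call was lost without Mef2c replicate 1 (adjusted p 0.0787), without wild-type replicate 3 (0.0655), without the 3 libraries richest in B cell markers (0.104) and when only the 6 libraries compared were fitted (0.103). The HDAC2 call was lost when only the 6 libraries compared were fitted (0.0771). It was also lost without HDAC2 replicate 1 (0.106) or 2 (0.114) and without wild-type replicate 1 (0.0602), 2 (0.0621) or 3 (0.145).

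With the Dyrk1 label Tgfb1 had 129, 126 and 132 FPKM, every library above wild type, but the log2 difference of 0.09 did not pass (adjusted p 0.229). The HDAC1-labelled libraries had 124, 121 and 127 FPKM, which overlapped wild type (log2 difference 0.04, adjusted p 0.652). Tgfb1 was higher with the HDAC1 than with the HDAC2 label in 3 of 3 libraries (log2 difference 0.18, SE 0.05), at an adjusted p of 0.0822.

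The promoters of Tgfb1, Itgav and Tgfbr1 are shown because these genes moved in more than 1 comparison, Tgfb1 down and the other 2 up. RefSeq sequences (GRCm38.p6), from 250 bases before to 50 bases after the start of the gene and written 5′ to 3′ along its strand, matched 7 of the 10 genes by symbol. The window held the annotated start for 6, all but that of Itgb8, and Lrrc32, Smad7 and Skil are named only. Capitals mark GC boxes (GGGCGG on either strand), the motif that Sp1 family factors bind. They lie at chr7:25686752-25687051 for Tgfb1, chr2:83724147-83724446 for Itgav and chr4:47352972-47353271 for Tgfbr1, each on the plus strand.
Tgfb1: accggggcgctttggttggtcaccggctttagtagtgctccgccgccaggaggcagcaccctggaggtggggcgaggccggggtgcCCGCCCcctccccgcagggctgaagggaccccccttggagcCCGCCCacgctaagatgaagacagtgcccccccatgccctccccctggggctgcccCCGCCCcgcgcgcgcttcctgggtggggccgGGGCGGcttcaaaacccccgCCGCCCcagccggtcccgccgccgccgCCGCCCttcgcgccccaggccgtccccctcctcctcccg
Itgav: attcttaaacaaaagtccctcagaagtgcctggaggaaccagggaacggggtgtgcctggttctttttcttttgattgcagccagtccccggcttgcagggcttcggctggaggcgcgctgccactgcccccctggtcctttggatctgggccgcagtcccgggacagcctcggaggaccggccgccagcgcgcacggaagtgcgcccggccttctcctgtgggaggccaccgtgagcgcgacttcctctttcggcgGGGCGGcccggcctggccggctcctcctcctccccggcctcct
Tgfbr1: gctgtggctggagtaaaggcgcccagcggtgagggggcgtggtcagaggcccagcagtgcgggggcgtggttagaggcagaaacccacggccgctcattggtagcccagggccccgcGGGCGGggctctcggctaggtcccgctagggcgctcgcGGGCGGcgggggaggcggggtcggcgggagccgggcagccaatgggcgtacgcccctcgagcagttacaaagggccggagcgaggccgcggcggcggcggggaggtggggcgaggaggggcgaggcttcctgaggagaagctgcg

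The Tgfb1 window held 6 GC boxes, the Tgfbr1 window 2 and the Itgav window 1, and 77.0%, 74.7% and 67.3% of their bases were G or C. Of the 32851 RefSeq promoter windows of this length 35.7% held at least 1 GC box. None of the 3 held a SMAD box (CAGAC on either strand, present in 49.6% of all windows) or a MEF2 box (0.557% of all windows). Tgfbr2 had 1 SMAD box in its window. Such matches are letters in a window and not measured binding sites. As only the GC box occurred in the 3 windows, no match overlapped another motif.

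Itgav (ENSMUSG00000027087, chr2:83724397-83806916, plus strand), which encodes the alpha V chain of the integrins that free TGF-beta, was the gene called most often. It rose with 4 of the 5 labels. The HDAC2-labelled libraries had 8.37, 8.81 and 8.36 FPKM, the Dyrk1-labelled ones 7.92, 7.96 and 9.30 FPKM, the HDAC1-labelled ones 7.84, 7.68 and 8.15 FPKM and the Mef2c-labelled ones 8.13, 7.16 and 7.05 FPKM, against 6.32, 6.29 and 6.13 FPKM in wild type. No library of these 4 groups overlapped wild type, whose 3 values lay close together. The log2 differences were 0.39 with the HDAC2 label (SE 0.07, adjusted p 0.00319), 0.37 with the Dyrk1 label (SE 0.07, adjusted p 0.00482), 0.29 with the HDAC1 label (SE 0.07, adjusted p 0.0188) and 0.22 with the Mef2c label (SE 0.07, adjusted p 0.0481).

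These 4 comparisons share the wild-type libraries and are not independent of each other. The HDAC2 call on Itgav held under all 15 other settings and the Dyrk1 call under all but the fit restricted to the 6 libraries compared (adjusted p 0.107). The HDAC1 call was lost when HDAC1 replicate 1 (0.0617) or 3 (0.0584) was left out, or wild-type replicate 3 (0.0766), with another library scaling (0.0562) and once trends with length and GC content were taken out (0.263). The Mef2c call was lost under 11 of the 15, among them fits without Mef2c replicate 1 (0.204) or 2 (0.0697) or wild-type replicate 1 (0.0908), 2 (0.0765) or 3 (0.143). With the length and GC trends taken out the log2 differences of Itgav were 0.21, 0.20, 0.10 and 0.08 for the HDAC2, Dyrk1, HDAC1 and Mef2c labels. With the Mef2d label Itgav had 7.02, 6.07 and 5.92 FPKM, which overlapped wild type (log2 difference 0.02, adjusted p 0.898). Between the MEF2 labels the Mef2c-labelled libraries were higher in 3 of 3 (log2 difference 0.20, SE 0.07), at an adjusted p of 0.207.

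Itgb8 (ENSMUSG00000025321, chr12:119158022-119238802, minus strand), which encodes the beta 8 chain that pairs with alpha V, was not called in any comparison. It had 4.22, 3.65 and 3.23 FPKM with the Mef2c label, against 2.33, 2.58 and 2.33 FPKM in wild type. Every Mef2c-labelled library was higher, and the log2 difference of 0.46 (SE 0.16) had an adjusted p of 0.0590. Dyrk1-labelled libraries ranged from 2.43 to 5.06 FPKM (log2 difference 0.38, adjusted p 0.116). The other 3 labels gave log2 differences of 0.20 to 0.25, and wild type had the lowest mean of the 6 groups, 2.41 ± 0.144 FPKM. At this level the added 1 FPKM shrinks a fold change.

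Of the receptors, Tgfbr1 (ENSMUSG00000007613, chr4:47353222-47414931, plus strand), the type I receptor kinase that phosphorylates the Smads, was higher with the Mef2d and HDAC2 labels. It had 23.1, 25.95 and 24.8 FPKM in Mef2d-labelled and 23.1, 22.9 and 20.9 FPKM in HDAC2-labelled libraries, against 20.9, 18.2 and 16.1 FPKM in wild type. Wild-type replicate 1 was just below the lowest HDAC2-labelled library, and the Mef2d-labelled libraries were clear of all 3. The log2 differences were 0.41 with the Mef2d label (SE 0.09, adjusted p 0.00661), which held under all 15 other settings, and 0.27 with the HDAC2 label (SE 0.09, adjusted p 0.0391).

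The HDAC2 call on Tgfbr1 was lost under 10 of the 15, among them fits without HDAC2 replicate 1 (adjusted p 0.120) or 2 (0.102) or wild-type replicate 2 (0.0715) or 3 (0.195). Mef2c- and Dyrk1-labelled libraries averaged 21.1 FPKM each and HDAC1-labelled ones 19.7 FPKM, with log2 differences of 0.19, 0.19 and 0.10 and adjusted p of 0.150, 0.159 and 0.476. The 3 groups overlapped wild type.

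Tgfbr2 (ENSMUSG00000032440, chr9:116084293-116175360, minus strand), the type II receptor that binds the cytokine first, was not called. It had 68.6, 71.0 and 66.7 FPKM in HDAC2-labelled and 67.8, 69.0 and 65.2 FPKM in Mef2d-labelled libraries, against 62.1, 61.2 and 55.3 FPKM in wild type. Both groups lay wholly above wild type. The log2 differences were 0.21 (SE 0.08, adjusted p 0.0585) and 0.18 (SE 0.08, adjusted p 0.108). With the other 3 labels they were 0.02 to 0.07.

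Smad3 (ENSMUSG00000032402, chr9:63646767-63757994, minus strand), which carries the receptor signal to the nucleus, was the steadiest of the 10, with group means of 21.9 FPKM in wild type to 24.2 FPKM with the Mef2d label. No comparison called it, and its log2 differences from wild type were 0.02 to 0.14, with adjusted p of 0.327 to 0.896. All Mef2d-labelled libraries (24.6, 24.2 and 23.8 FPKM) and all Mef2c-labelled ones (23.0, 25.3 and 23.4 FPKM) were above the wild-type ones (22.6, 21.3 and 21.9 FPKM).

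Among the inhibitors, Skil (ENSMUSG00000027660, chr3:31095058-31122577, plus strand), which encodes the Smad corepressor SnoN, was higher with the Mef2d and HDAC2 labels. It had 33.0, 40.2 and 33.7 FPKM in Mef2d-labelled and 34.8, 33.8 and 31.5 FPKM in HDAC2-labelled libraries, against 30.6, 28.4 and 23.9 FPKM in wild type. No library of either group overlapped wild type, where replicate 3 was the lowest. The log2 differences were 0.36 (SE 0.09, adjusted p 0.0162) and 0.27 (SE 0.09, adjusted p 0.0485). Dyrk1- and HDAC1-labelled libraries lay wholly above wild type as well, with log2 differences of 0.27 and 0.25, but did not pass (adjusted p 0.0602 and 0.0871).

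The Mef2d call on Skil was lost without Mef2d replicate 2 (adjusted p 0.0747), without wild-type replicate 3 (0.0919), when only the 6 libraries compared were fitted (0.0697) and once trends with length and GC content were taken out (0.0849, with a log2 difference of 0.19). The HDAC2 call was lost under 11 of 15 settings, among them fits without HDAC2 replicate 1 (0.146), 2 (0.109) or 3 (0.0588) or wild-type replicate 2 (0.0601) or 3 (0.237, with a log2 difference of 0.17), and with length and GC trends taken out its log2 difference was 0.11 (0.299). With the Mef2c label Skil was at 28.0, 28.7 and 25.4 FPKM, close to wild type (log2 difference -0.01, adjusted p 0.963). It was lower there than with the Mef2d label (log2 difference -0.37, SE 0.09, adjusted p 0.0491). This last call was lost under 13 of 15 settings, including each fit that left out 1 of the 6 libraries except Mef2d replicate 1 (adjusted p 0.0805 to 0.242).

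Smad7 (ENSMUSG00000025880, chromosome 18, plus strand), which blocks the type I receptor, was not called. It had 37.9, 40.2 and 37.1 FPKM in Mef2c-labelled libraries, against 44.9, 50.3 and 40.5 FPKM in wild type. All 3 were below wild type (log2 difference -0.23, SE 0.12, adjusted p 0.196), and all 3 were below the Mef2d-labelled libraries at 43.4, 55.8 and 48.3 FPKM (log2 difference -0.34, SE 0.12, adjusted p 0.186). Dyrk1 replicate 3 had the lowest value of the 18, 32.2 FPKM.

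Ski (ENSMUSG00000029050, chr4:155154075-155222592, minus strand), the second Smad corepressor, was not called either. Its lowest group mean was 53.9 ± 4.87 FPKM with the Mef2c label, against 62.6 ± 4.41 FPKM in wild type (log2 difference -0.21, SE 0.09, adjusted p 0.107). The groups overlapped. With the other 4 labels its log2 differences from wild type were -0.11 to 0.06.

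**Figure D2:**
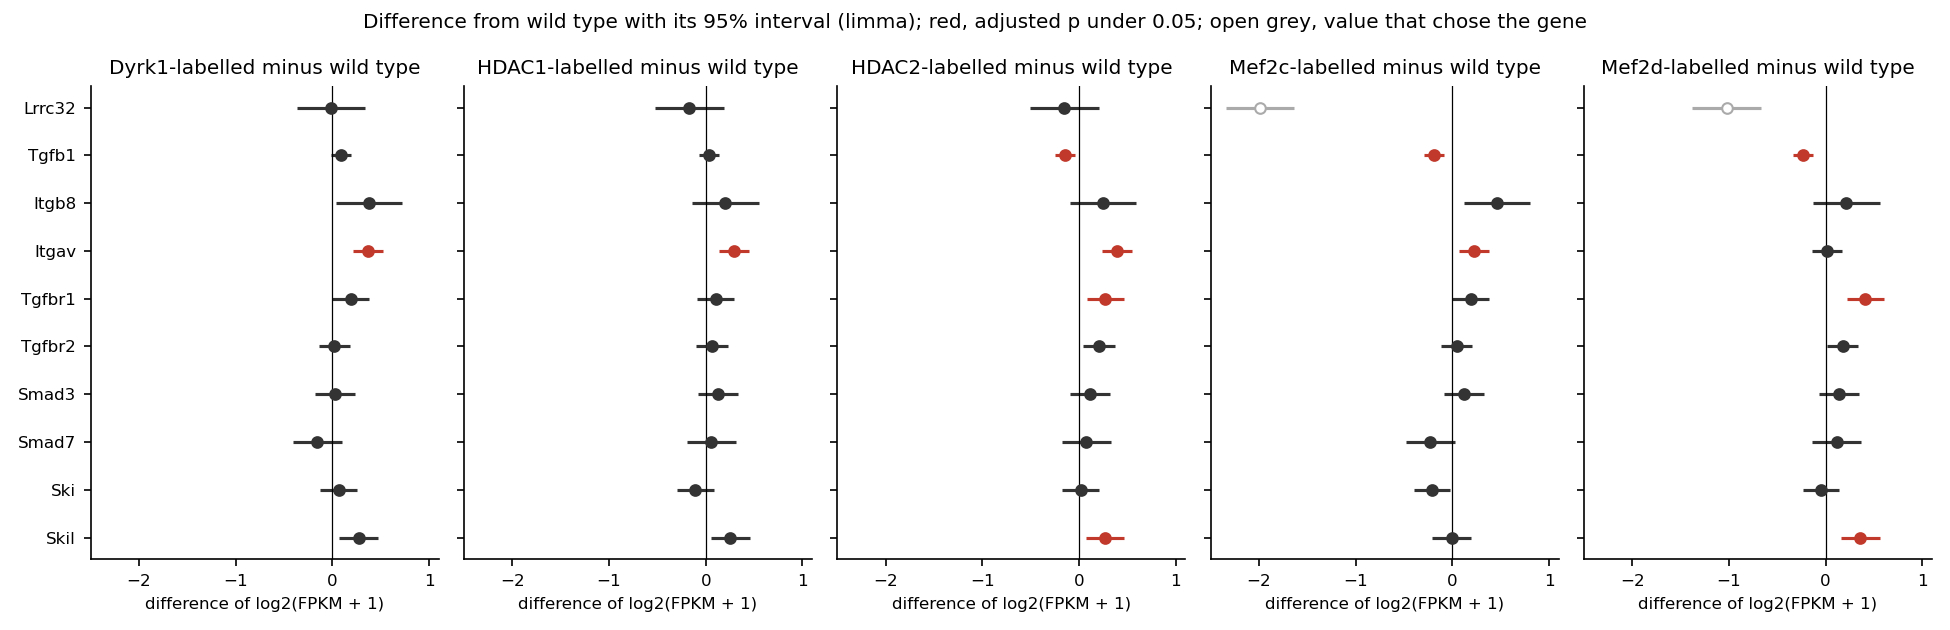
Difference of log2(FPKM + 1) from wild type for the 10 genes (rows) with each label (panels), with 95% intervals from limma over 18 libraries. Red marks an adjusted p under 0.05, and the open grey points are Lrrc32 with the MEF2 labels, values that chose the gene. Itgav lies right of 0 with 4 labels, and Tgfb1 left of 0 with the HDAC2, Mef2c and Mef2d labels.

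The number of the 10 that passed is set here beside the share of all genes called in the same comparison. With the Dyrk1 label 1 of 10 rose and 0 fell, where 11.1% of all genes tested rose and 6.19% fell, 17.3% in all. With the HDAC1 label 1 of 10 rose and 0 fell, where 10.2% of all genes rose and 2.32% fell, 12.5% in all. With the HDAC2 label 3 of 10 rose and 1 fell, where 16.1% of all genes rose and 9.41% fell, 25.6% in all. Libraries with the same replicate number deviated alike in that comparison, though the labels state no pairing. With the number as a block the count was 2, Itgav and Tgfb1. Plasma cell markers (5 genes) were higher there too, with all 5 called and sums of 660 to 2090 FPKM, against 190 to 491 FPKM in wild type. With the HDAC1 label they summed to 517 to 1384 FPKM, and 1 of the 5 was called. Their part in the calls with either label was not tested. Of the 9 genes without Lrrc32, 1 rose and 1 fell with the Mef2c label, where 12.9% of all genes rose and 6.06% fell, 19% in all. With the Mef2d label 2 of the 9 rose and 1 fell, where 13.9% of all genes rose and 7.95% fell, 21.9% in all.

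The direct comparisons called few genes. Between the HDAC1 and HDAC2 labels limma called 0 of 10 (1.5% of all genes), and 1 of 10, Tgfb1, had an unadjusted p under 0.05. Between the Mef2c and Mef2d labels 1 of the 9 genes other than Lrrc32, Skil, was lower and 0 were higher, where 1.46% of all genes were lower and 3.06% were called in all. Here too libraries with the same replicate number deviated alike, and with the number as a block the call on Skil was lost (adjusted p 0.0644). Over the 6 groups at once, the F test of limma called 4 of the 9 genes other than Lrrc32, where it called 38.6% of all genes. These were Tgfb1 (adjusted p 0.000505), Itgav (0.00154), Skil (0.0186) and Tgfbr1 (0.0267). For Smad7, Tgfbr2, Ski, Itgb8 and Smad3 the adjusted p was 0.120, 0.133, 0.136, 0.224 and 0.679.

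Single libraries moved the smaller counts by more than 1.5 times. With the Dyrk1 label 2 genes passed without Dyrk1 replicate 1 or wild-type replicate 1. With the HDAC1 label 0 passed when HDAC1 replicate 1, HDAC1 replicate 3 or wild-type replicate 3 was left out. With the HDAC2 label 1 passed, Itgav, without HDAC2 replicate 1 or 2 or wild-type replicate 2 or 3. With the Mef2c label 1 passed, Tgfb1, without Mef2c replicate 2 or wild-type replicate 1 or 2, and 0 passed without Mef2c replicate 1 or wild-type replicate 3. Without the 3 libraries richest in B cell markers the counts were 2 with the Dyrk1, 2 with the HDAC2 and 0 with the Mef2c label.

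The median log2 difference of the 9 genes other than Lrrc32 was 0.09 with the Dyrk1, 0.10 with the HDAC1, 0.21 with the HDAC2, 0.04 with the Mef2c and 0.14 with the Mef2d label. Over all genes tested the medians were 0.02, 0.05, 0.05, 0.04 and 0.04 in the same order. Libraries did not overlap wild type for 3, 2 and 6 of 10 genes with the Dyrk1, HDAC1 and HDAC2 labels, where 29.8%, 35.7% and 46.6% of all genes did not. For the 9 genes without Lrrc32 the counts were 5 with the Mef2c and 6 with the Mef2d label, where 36.3% and 42.3% of all genes did not overlap. Between the HDAC1 and HDAC2 labels 5 of 10 genes did not overlap, and between the Mef2c and Mef2d labels 4 of the 9 without Lrrc32, where 23.2% and 18.7% of all genes did not.

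Around the 10 genes, 74 others of the pathway in 5 lists were followed, and 54 of them passed the filter. With the Dyrk1 label 8 rose and 4 fell, 22.2% of the 54, where 17.3% of all genes were called. With the HDAC1 label 15 rose and 1 fell (29.6%, where 12.5% of all genes were called), and with the HDAC2 label 16 rose and 2 fell (33.3%, where 25.6% were). With the Mef2c label 7 rose and 4 fell, a share of 20.4% close to the 19% of all genes, and with the Mef2d label 14 rose and 4 fell (33.3%, where 21.9% of all genes were called). With another library scaling (RLE) the higher and lower counts were 5 and 4, 11 and 2, 11 and 3, 6 and 5, and 8 and 5 in the same order of labels, and with trends of length and GC content taken out 5 and 6, 8 and 4, 7 and 5, 5 and 7, and 6 and 5, so the excess of higher genes depends on these choices. Between the HDAC1 and HDAC2 labels 2 of the 54 were higher (3.7%, where 1.5% of all genes were called), and between the Mef2c and Mef2d labels 1 was higher and 2 were lower (5.56%, where 3.06% were).

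The counts in the pathway lists rested in part on single libraries. Without wild-type replicate 3 they were 6, 7, 10, 5 and 5 for the Dyrk1, HDAC1, HDAC2, Mef2c and Mef2d labels. They were 7 without Dyrk1 replicate 3, 7 without HDAC1 replicate 1, 10 without HDAC2 replicate 1, 7 without Mef2c replicate 1, 6 without Mef2c replicate 2 and 10 without Mef2d replicate 1 or 2.

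**Figure D3:**
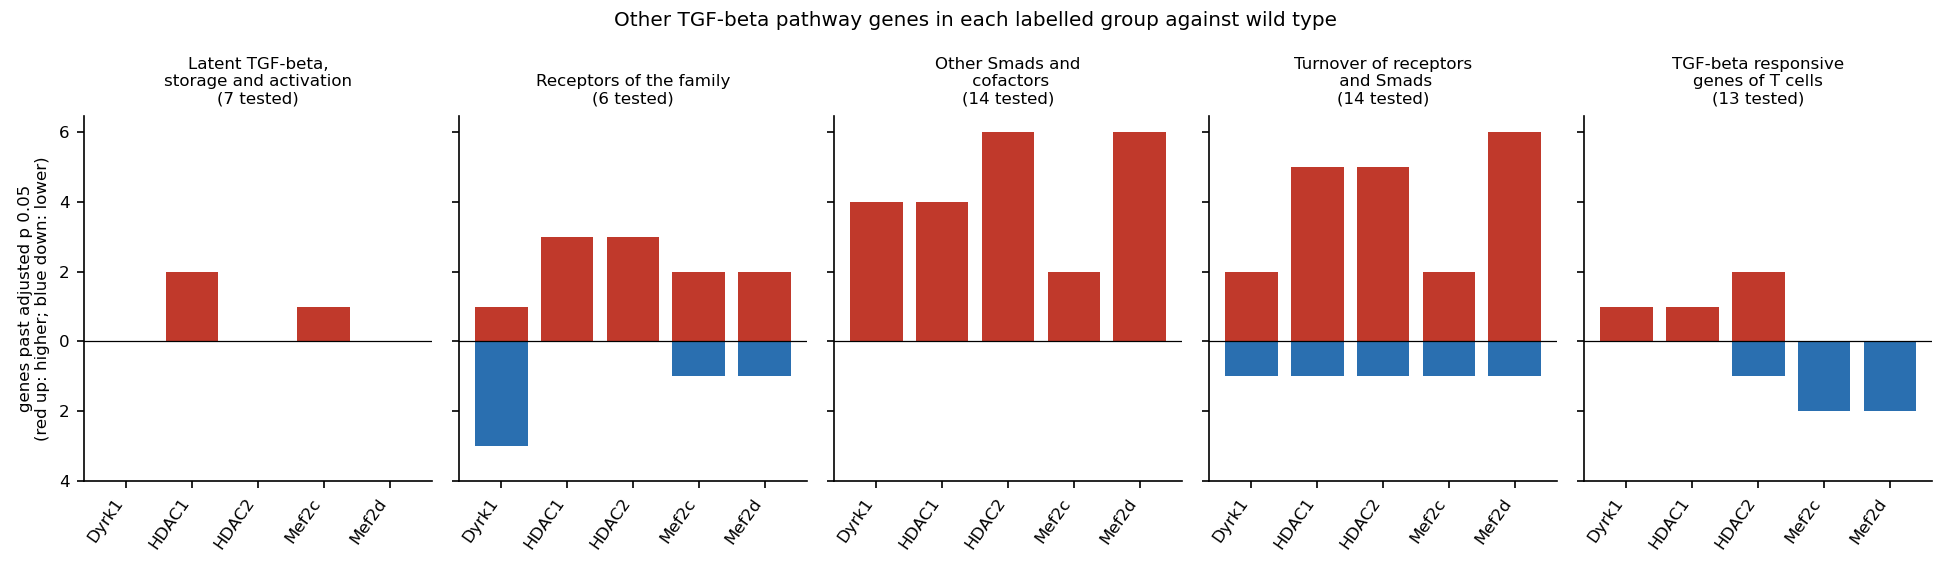
Number of genes past an adjusted p of 0.05 (limma) in 5 lists of other TGF-beta pathway genes (panels), with each label against wild type; red bars count higher and blue bars lower genes. In the list of other Smads and cofactors 2 to 6 of 14 rose and 0 fell with each label, while the responsive genes of T cells had at most 3 of 13 called. Of all genes tested 10.2% to 16.1% rose and 2.32% to 9.41% fell with these labels.

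Among other Smads and cofactors (14 tested), 4 rose with the Dyrk1, 4 with the HDAC1, 6 with the HDAC2, 2 with the Mef2c and 6 with the Mef2d label, and 0 fell with any. These are 28.6%, 28.6%, 42.9%, 14.3% and 42.9% of the 14. Of all genes tested 11.1%, 10.2%, 16.1%, 12.9% and 13.9% rose in the same order of labels, and 2.32% to 9.41% fell. Smad4, the partner that Smad3 needs to act on genes, averaged 31.5 FPKM with the HDAC1, 31.1 with the HDAC2, 29.9 with the Mef2c, 28.8 with the Mef2d and 27.8 with the Dyrk1 label, against 24.5 FPKM in wild type. Every library of the 5 groups was above every wild-type one, and the log2 differences were 0.18 to 0.35 with adjusted p of 0.00283 to 0.0484. Ep300, an acetyltransferase coactivator of Smad3, also rose with all 5 labels, by 0.36 to 0.52 on the log2 scale. Its call with the Dyrk1 label was lost when only the 6 libraries compared were fitted (adjusted p 0.0948). The corepressor genes Ncor1 and Sin3a rose with 4 labels each, all but Mef2c. The calls with the HDAC1 label were lost without HDAC1 replicate 1 for Ncor1 (adjusted p 0.0651) and Sin3a (0.0665), without HDAC1 replicate 3 for Sin3a (0.0543) and without wild-type replicate 3 for Ncor1 (0.0772) and Sin3a (0.0713). Once trends with length and GC content were taken out, the log2 difference of Ncor1 was 0.20, against 0.43 before (adjusted p 0.0617), and that of Sin3a 0.14, against 0.21 before (0.115). The Sin3a call was also lost with RLE scaling (0.127) and when only the 6 libraries compared were fitted (0.0693). The 5 comparisons share the wild-type libraries and are not independent.

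Of the receptors of the family (6 tested), Bmpr2, a type II receptor of bone morphogenetic proteins, rose with all 5 labels, by 0.38 to 0.61 on the log2 scale (0.31 with the HDAC1 label, against 0.61 before, once length and GC trends were taken out). It was at 2.48 to 3.10 FPKM on average, against 1.68 FPKM in wild type. Tgfbr3, the coreceptor betaglycan, fell with the Mef2d (3.70 FPKM), Dyrk1 (3.96 FPKM) and Mef2c (4.23 FPKM) labels, against 5.43 FPKM in wild type. Acvrl1, a type I receptor, fell with the Dyrk1 label (1.53 FPKM, against 2.93 FPKM in wild type, log2 difference -0.64). That call was lost when only the 6 libraries compared were fitted (adjusted p 0.0948). Bmpr1a was below 2 FPKM in every group mean and rose with the Mef2c, HDAC1 and HDAC2 labels, by 0.57, 0.41 and 0.26. With a pseudocount of 0.1 the first was 1.03.

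Of the genes of latent TGF-beta storage and activation (7 tested), 2 rose with the HDAC1 label and 1 with the Mef2c label. These are 28.6% and 14.3% of the 7, where 10.2% and 12.9% of all genes rose. Mmp14, a membrane protease that can free TGF-beta, averaged 6.56 FPKM in HDAC1-labelled libraries and 2.99 FPKM in wild type (log2 difference 0.92, SE 0.14, adjusted p 0.00242). Itgb5, another beta chain that pairs with alpha V, averaged 3.94 and 1.34 FPKM in the same order (log2 difference 1.08, SE 0.17, adjusted p 0.00262). Both genes were also the 2 called between the HDAC1 and HDAC2 labels. Itgb1 averaged 163 FPKM with the Mef2c label and 109 FPKM in wild type (log2 difference 0.59, SE 0.15, adjusted p 0.0166), a call lost without Mef2c replicate 1 (0.0550) or 2 (0.0592) or wild-type replicate 2 (0.0575).

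Of the genes that turn over receptors and Smads (14 tested), Strap, a partner of Smad7 at the receptor, fell with 4 labels, all but Dyrk1. It averaged 37.7 FPKM with the HDAC2, 40.1 with the Mef2d, 42.3 with the Mef2c and 43.2 with the HDAC1 label, against 51.3 FPKM in wild type. The ubiquitin ligase gene Smurf1 rose with the HDAC2, Mef2d and HDAC1 labels, by 0.34, 0.34 and 0.26 on the log2 scale. The deubiquitinase genes Usp11 and Usp9x rose with 4 labels each, the first not with Dyrk1 and the second not with Mef2c. With length and GC trends taken out, the log2 difference of Usp9x with the HDAC1 label was 0.33, against 0.59 before.

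Of the TGF-beta responsive genes of T cells (13 tested), 1 rose with the Dyrk1 and 1 with the HDAC1 label, 2 rose and 1 fell with the HDAC2 label, and 2 fell with the Mef2c and 2 with the Mef2d label. The shares called were 7.69%, 7.69%, 23.1%, 15.4% and 15.4% in that order, where 17.3%, 12.5%, 25.6%, 19% and 21.9% of all genes were called. Ccr8, a chemokine receptor gene of Treg, fell with the HDAC2 (21.3 FPKM), Mef2c (23.4 FPKM) and Mef2d (26.3 FPKM) labels, against 36.0 FPKM in wild type, with log2 differences of -0.73, -0.60 and -0.45. The Mef2d-labelled libraries overlapped wild type. Gpr15, a receptor gene for homing to the colon, averaged 11.8 FPKM with the HDAC1 label and 6.64 FPKM in wild type (log2 difference 0.72, adjusted p 0.0197). That call was lost without HDAC1 replicate 2 (0.0802) or wild-type replicate 3 (0.0787), and with the Mef2d label Gpr15 was lower (log2 difference -0.59, adjusted p 0.0305). Xcl1 averaged 21.2 FPKM with the HDAC2 label and 8.07 FPKM in wild type (log2 difference 1.27, SE 0.33, adjusted p 0.0130), a call lost without HDAC2 replicate 2 (0.0565) or wild-type replicate 1 (0.0519). Xcl1 is also made by CD8 T and NK cells, whose 7 markers summed to 46.7 to 74.3 FPKM in HDAC2-labelled libraries and 41.9 to 57.6 FPKM in wild type. Of the 7, 3 were called higher (Klrb1c, Ncr1 and Prf1) and 4 were not called, with a median log2 difference of -0.0995. Klrb1c had 7.96, 18.6 and 8.77 FPKM with the HDAC2 label, against 4.40, 4.81 and 3.29 FPKM in wild type. Ncr1 had 5.71, 14.8 and 4.22 FPKM, against 2.69, 3.36 and 2.78 FPKM. HDAC2 replicate 2 had the most Xcl1, Klrb1c, Ncr1 and Prf1 of its group. Cd8a and Cd8b1 had their lowest group means with the HDAC2 label. The part of CD8 T and NK cells in the Xcl1 value was not tested. Cdkn1a rose with the Dyrk1 label (6.91 FPKM, against 3.20 FPKM in wild type, log2 difference 0.91), a call lost when only the 6 libraries compared were fitted (adjusted p 0.0765).

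The genes most like Lrrc32 over the 18 libraries were sought by Pearson correlation of log2(FPKM + 1) among 7782 genes averaging at least 5 FPKM. The highest were Zfp429 (r = 0.948), Trim12a (0.942), Trim5 (0.935), Trim30d (0.926) and Unc5cl (0.924), and the lowest Kcnh2 (-0.938), Inppl1 (-0.929), Atr (-0.927), Nudcd3 (-0.921) and Ercc6l2 (-0.916). In 8 of these 10 genes the 6 MEF2-labelled libraries lay wholly apart from the other 12, and in Zfp429 and Ercc6l2 all but Mef2d replicate 3 did, so the coefficients largely describe that split. Rank correlations were weaker, at 0.487 to 0.792 for the first 5. Trim12a, Trim5, Trim30d and Inppl1 lie on chromosome 7, as Lrrc32 does, at 5.81, 5.77, 5.98 and 3.33 Mb from its start. Zfp429 and Ercc6l2 lie on chromosome 13.

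Trim12a, a gene of the TRIM5 family of antiviral proteins, had 0.0130, 0 and 0.0673 FPKM in Mef2c-labelled and 0, 0 and 6.57 FPKM in Mef2d-labelled libraries, against 23.9, 24.7 and 22.3 FPKM in wild type. Its level was 27.0 to 31.0 FPKM in the 9 libraries with the other labels. Mef2d replicate 3, the library of its group with the most Lrrc32, was the only 1 of the 6 MEF2-labelled libraries with more than 1 FPKM of Trim12a. Zfp429, a zinc finger gene, had 0.137, 0.155 and 0.190 FPKM in Mef2c-labelled and 0.419, 3.95 and 8.22 FPKM in Mef2d-labelled libraries, against 6.37, 8.34 and 7.54 FPKM in wild type. The 3 Mef2d-labelled libraries take the same order for Zfp429 as for Lrrc32. Trim12a and Zfp429 were picked for likeness to Lrrc32 in these same libraries, which favours such agreement, so it is a description only.

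**Figure D4:**
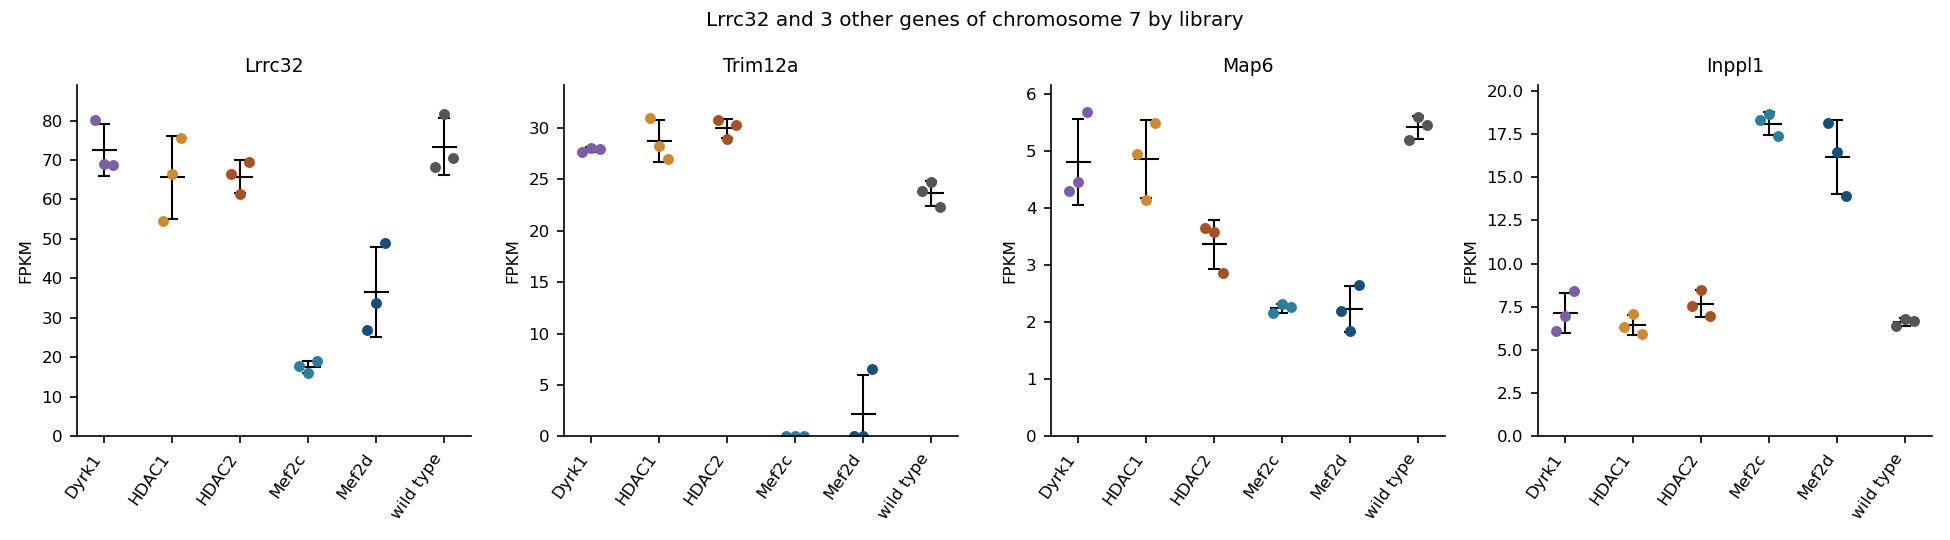
FPKM of Lrrc32, Trim12a, Map6 and Inppl1, all on chromosome 7, in each of the 18 libraries (points), by label, with the group mean and SD (n = 3). Trim12a is at or near 0 in 5 of the 6 MEF2-labelled libraries, and Inppl1 is at 13.9 to 18.6 FPKM in those 6, against 6.39 to 6.82 FPKM in wild type.

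Other genes near Lrrc32 on chromosome 7 also differed with the MEF2 labels. Within 10 Mb, 41 of 108 genes tested (38%) were called with the Mef2c label and 43 (39.8%) with the Mef2d label, against 18.8% and 21.7% elsewhere. With the Dyrk1, HDAC1 and HDAC2 labels 22.2%, 19.4% and 29.6% were called there, against 17.3%, 12.5% and 25.5% elsewhere. Between the Mef2c and Mef2d labels only 1 of the 108 was called. With the MEF2 labels the share was highest 5 to 10 Mb beyond the start of Lrrc32, where 59.3% (Mef2c) and 66.7% (Mef2d) of 27 genes were called. The Dyrk1, HDAC1 and HDAC2 labels gave 11.1%, 18.5% and 33.3% there, and 41.2%, 29.4% and 58.8% of 17 genes at 15 to 20 Mb.

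Within 1 Mb of Lrrc32, 7 of 16 genes were called with the Mef2c label, 1 higher and 6 lower, and 8 of 16 with the Mef2d label, 1 higher and 7 lower. These shares of 43.8% and 50% stand against 19% and 21.9% elsewhere. With the Dyrk1, HDAC1 and HDAC2 labels 5, 4 and 3 of the 16 were called there (31.2%, 25% and 18.8%), against 17.3%, 12.5% and 25.6% elsewhere. The following genes are examples picked after their values were seen. Rps3, 989 kb away, fell with all 5 labels, by log2 differences of -0.24 to -0.20. A630091E08Rik, the nearest gene tested at 54 kb, averaged 0.926 FPKM with the Mef2c label and 1.98 FPKM with the Mef2d label, against 3.09 FPKM in wild type (log2 differences -1.07 and -0.47, adjusted p 0.00116 and 0.0787). Map6, 778 kb away, averaged 2.25 FPKM with the Mef2c and 2.23 FPKM with the Mef2d label, against 5.41 FPKM in wild type (log2 differences -0.983 and -0.996). Dgat2, 664 kb away, averaged 1.56 and 1.87 FPKM, against 4.51 FPKM in wild type (-1.13 and -0.96). Emsy, 97.9 kb away, was not called with the Mef2c or Mef2d label (log2 differences -0.00 and 0.06, adjusted p 0.996 and 0.681). With the Dyrk1 label it was higher (log2 difference 0.30, adjusted p 0.0356). The part of a shared chromosomal region in the lower Lrrc32 was not tested. Within 5 Mb of Lrrc32, 31.2% and 29.7% of 64 genes were called with the Mef2c and Mef2d labels, against 18.9% and 21.9% elsewhere. Windows of 5 Mb around other genes of the 10 gave shares as high. Near Smad7 they were 35.3% and 35.3% of 34 genes, and near Smad3 31.6% and 22.8% of 57. Near Tgfb1, on the same chromosome as Lrrc32, 12.7% and 16.2% of 142 genes were called, against 19.1% and 22% elsewhere. Near the rest of the 10 the shares were 4.29% to 24.4%.

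**Figure D5:**
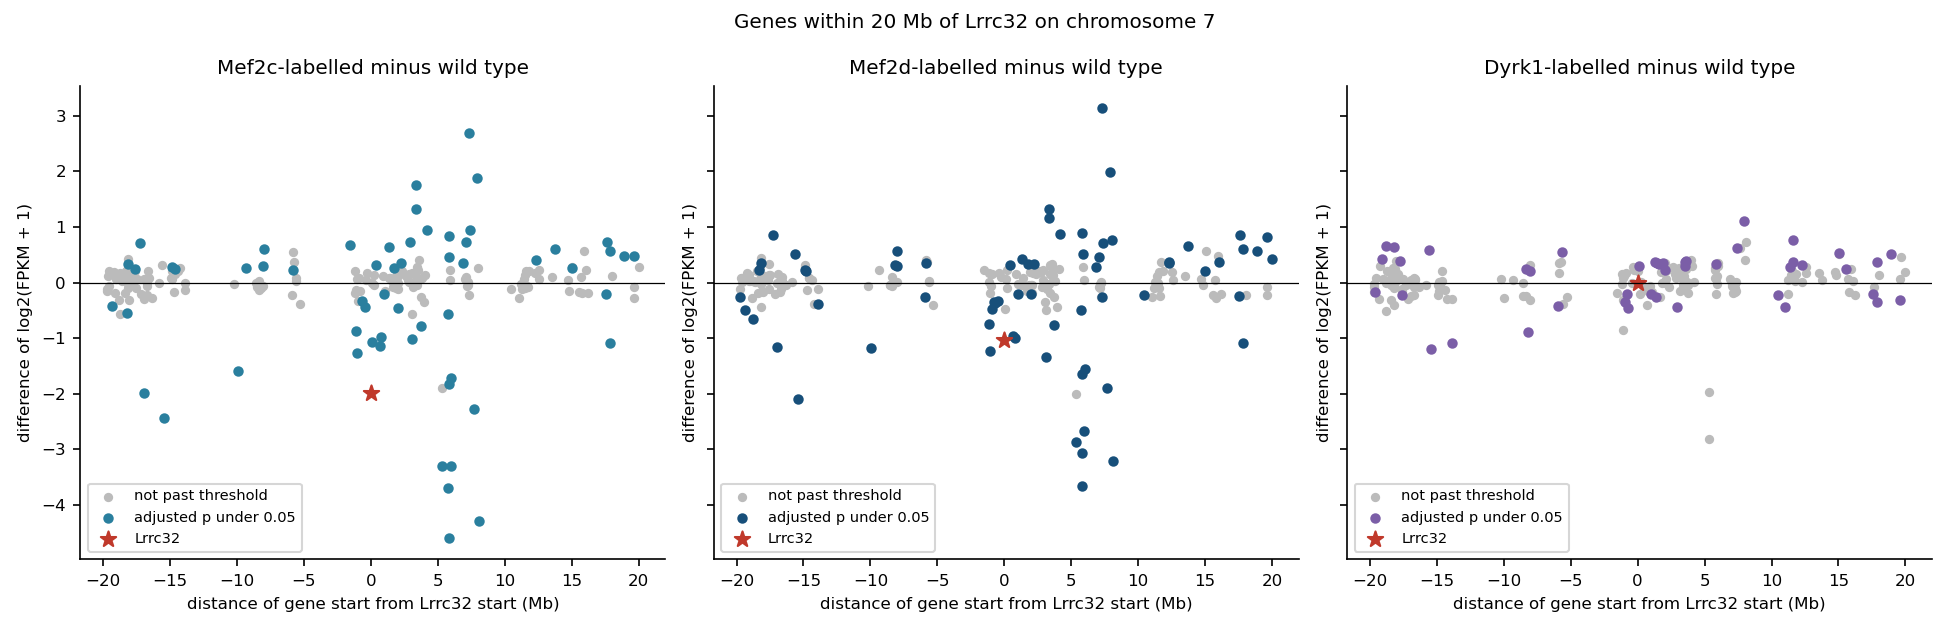
Difference of log2(FPKM + 1) from wild type for genes within 20 Mb of the start of Lrrc32, with the Mef2c, Mef2d and Dyrk1 labels (panels); coloured points have an adjusted p under 0.05 (limma) and the star is Lrrc32. With both MEF2 labels the points between 5 and 10 Mb spread furthest from 0, and 59.3% and 66.7% of the 27 genes there are coloured, against 11.1% with the Dyrk1 label. With the HDAC1 and HDAC2 labels, which are not drawn, the shares are 18.5% and 33.3%.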

How the data were processed

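RNA of 18 libraries, 6 label groups of 3, was analysed from 1 deposited table of 35275 gene identifiers. Per the labels, a NEBNext Ultra II kit was used and reads were paired, and STAR, HTSeq and mm10 are named without versions, per the submitters' processing notes. The deposited values are called FPKM here, although RPKM and FPKM cannot be told apart and the table names no unit. Values times gene length lay within 0.03 of a whole multiple of 1 step for only 25.2% to 27% of identifiers per library. The unit and the recovered depth rest on that part of the genes. Annotation, strand setting and filters of the authors are not given in the sources used here, and intervals cover the spread between these libraries only.

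Here 34490 identifiers were matched to symbols with GENCODE M21. The 12223 genes that reached 1 FPKM in 3 libraries or more were fitted on log2(FPKM + 1), whose fold changes understate those of low genes, by limma 3.58.1 with an intensity trend (R 4.3.3) in 1 fit over 18 libraries with 12 residual degrees of freedom. P-values were adjusted by Benjamini-Hochberg over all genes tested, with a threshold of 0.05, in 7 comparisons and in an F test over the 6 groups. The steps were tested on simulated data. The 10 genes and the lists were chosen with earlier results of these data known. Of each pathway list up to 4 genes with the smallest p past the threshold are named, and for likeness to Lrrc32 the 5 highest and 5 lowest correlations. For the named pathway genes other settings were run only in the comparison of smallest p.

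Alternatives were pseudocounts of 0.1 and 0.5, no filter, a filter of 5 FPKM in 3 libraries, RLE scaling, the replicate number as a block, a fit of the 2 groups alone, removal of trends with length and GC content, leaving out the 3 libraries richest in B cell markers, and leaving out each library. Deviations of libraries with the same replicate number correlated above 0.1 in all 3 pairs for HDAC2 against wild type (0.325, 0.236 and 0.160), HDAC1 against HDAC2 (0.210, 0.428 and 0.132) and Mef2c against Mef2d (0.313, 0.396 and 0.310). For HDAC1 against wild type they were 0.297, 0.464 and 0.0667, below 0.1 in replicate 3 only. Any pairing rests on these correlations alone, and the labels give no shared litter or day.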

Additional observations from a re-analysis of the deposited data

How the results depend on the processing

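The alternatives gave 1043 values over 70 comparisons of the 10 genes. Of these, 920 kept direction and, where a call was checked, the call. Another 66 lost a call, 5 gained one, 52 uncalled ones changed sign and 0 changed sign while called. The 920 take in Lrrc32 with the Mef2c and Mef2d labels against wild type, 15 values each, where no call was checked. Such a value was counted if it kept its sign and moved by less than the SD of the libraries. The 1043 values also include Lrrc32 for Mef2c against Mef2d, where its call is no test. Counts of the 10 genes in that comparison are therefore left out below. The Skil call there was lost under 13 of 15 settings. In a fit of the 2 groups alone the genes called numbered 0 with the Dyrk1, 1 with the HDAC2 and 1 with the Mef2c label. With RLE scaling they were 0 with the HDAC1, 2 with the HDAC2 and 1 with the Mef2c label, and with trends of length and GC content taken out 0, 2 and 1 with those 3 labels. With no filter the counts were 2 with the HDAC2 and 1 with the Mef2c label. Without the 3 libraries richest in B cell markers they were 2 with the Dyrk1, 2 with the HDAC2 and 0 with the Mef2c label.

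With the replicate block, 2 genes were called with the HDAC2 label, where Tgfbr1 (adjusted p 0.0559) and Skil (0.0568) were lost. Between the MEF2 labels the call on Skil (0.0644) was lost. It changed no other call of the 10 genes where replicate numbers paired. Where they did not pair, the block gave 1 call with the Mef2c label, with Itgav at 0.0633.

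Leaving out 1 library gave 1 to 2 called genes with the Dyrk1, 0 to 1 with the HDAC1, 1 to 3 with the HDAC2, 0 to 2 with the Mef2c and 2 to 3 with the Mef2d label, and 0 to 0 for HDAC1 against HDAC2. The F test called 3 to 5. It was not run with the block, in 2 groups alone or without length and GC trends. The log2 difference of Lrrc32 changed sign in such fits with the Dyrk1 label, between -0.0867 (Dyrk1 replicate 1 left out) and 0.0634 (wild-type replicate 2 left out), and for HDAC1 against HDAC2, within -0.12 to 0.11.

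For the other pathway genes, leaving out 1 library gave 6 to 15, 7 to 15, 10 to 17, 5 to 12 and 5 to 19 calls with the Dyrk1, HDAC1, HDAC2, Mef2c and Mef2d labels, 2 to 3 for HDAC1 against HDAC2 and 2 to 3 for Mef2c against Mef2d. In 2 groups alone the counts were 0 with the Dyrk1 and 9 with the HDAC1 label. Without the libraries richest in B cell markers they were 6 with the Mef2c and 9 with the Mef2d label, and without length and GC trends 11 with the Mef2d label. The filter of 5 FPKM and the fit of 2 groups alone each gave 1 for HDAC1 against HDAC2 and 1 for Mef2c against Mef2d. The causes were not tested.

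Over all genes RLE scaling moved the share of higher calls to 54.2%, 51.6%, 46.4%, 49.3% and 47.6% with the Dyrk1, HDAC1, HDAC2, Mef2c and Mef2d labels, against 64.2%, 81.5%, 63.2%, 68.1% and 63.7% as deposited. Calls fell by more than 1.5 times in some alternatives, to as few as 62 with the Dyrk1 label, against 2116 as reported. The depth of 15.9 to 24.1 M reads limits low genes such as Itgb8 most.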
